A study of Mus musculus with 3 samples.

Results

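Of the 31053 genes counted in single-cell RNA-seq of the mouse testis, 8 were followed here: Sun3, Spag4, Sun5, Hook1, Rimbp3, Spem1, Meig1 and Spag16. They were chosen by symbol as genes of the manchette and of the spermatid nuclear envelope, and each had 1 row in the count tables. The series compared 3 genotypes of C57BL/6 mice, aged 8 weeks by the labels, with 1 library each. WT mice were wild type. KO mice lacked GRTH (Ddx25), a testis RNA helicase. KI mice carried the human GRTH gene with an arginine-to-histidine mutation and keep the protein without its phosphorylated form.  The labels name 1 mouse per genotype, whereas the study's methods describe pooled mice over a wider range of ages.

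Round spermatids (RS) are reshaped into elongating spermatids (ES) with the help of the manchette, a skirt of microtubules that surrounds the rear of the nucleus and also serves as a track for cargo on the way to the tail. SUN-domain proteins of the nuclear envelope join with nesprins to tie the nucleus to the cytoskeleton. Late in the same period transition proteins and then protamines replace the histones. The mRNAs of Prm1, Prm2, Tnp1 and Tnp2 are used here as a rough guide to how far a spermatid has come, which was not tested.

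Promoter sequences were read from the RefSeq promoter table of build GRCm38.p6, which held 7 of the 8 genes, all but Rimbp3. A cyclic AMP response element (CRE), TGACGTCA, and GTTGCC, the core of sites for RFX factors, were searched on both strands from 250 bases before to 50 bases after each start, and the 3 promoters with a match are shown with the matched letters in capitals. They are shown because CREM, which binds the CRE, and RFX factors are known regulators of germ cell genes. Spag4 held the CRE, at chr2:156065165-156065194 on the plus strand, 37 to 30 bases before the start of the RefSeq table. The gene starts of GENCODE, given with each gene below, can differ, and the CRE lies just inside the GENCODE start of Spag4. The core GTTGCC was in Spag16, at chr1:69826851-69826880 on the plus strand, where its reverse complement and then the core itself lay 111 to 98 bases before the start. Spem1 had the reverse complement of the core at chr11:69822257-69822286 on the minus strand, 109 to 104 bases before the start.
Spag4: ctggctcccagTGACGTCAcgggcgctctg
Spag16: ggtaactaGGCAACgcGTTGCCgtagtaac
Spem1: ctggggggggggGGCAACcctgggccttgc
Over all 32851 promoters of the same length, 1.79% held TGACGTCA and 12.5% held GTTGCC. The other 4 genes had neither run of letters in this window. A match is a description of the letters, and no binding was measured in these samples.

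The WT, KO and KI libraries held 82973909, 91388296 and 73150373 UMIs, and 5855, 4065 and 1571 cells were kept, with medians of 5145, 3971 and 11748 UMIs per cell. KI thus had fewer and deeper cells. The libraries shared 16 (WT and KO), 36 (WT and KI) and 8 (KO and KI) cell barcodes. Ddx25, the targeted gene, had 936 UMIs in RS-like cells of WT, 0 of 5889820 UMIs in KO, where a count of 0 allows up to 3, and 707 in KI. Cells were clustered without the 8 genes and the related lists, and clusters were named from marker genes. RS-like cells were clusters 10 (deep) and 1 (few UMIs), ES-like cells clusters 9, 5 and 4, and spermatocyte-like (SP-like) cells clusters 6, 7, 11 and 14. All of the 10 RS markers had UMIs in the RS-like cells of each library. Clusters 12, 2 and 3 were left unnamed, the first because its leading genes held more SP than spermatogonium markers although the latter scored highest, the others with markers of SP and RS close together (cluster 2) or no class clearly ahead and long genes leading (cluster 3). Levels are in CPM, the usual scaling of a gene's UMIs to all UMIs of the same cells. Parentheses after a level hold its exact Poisson 95% interval, after a share the exact Clopper-Pearson 95% interval and after a ratio the 95% interval of the ratio of counts, and all of these cover counting error only. A ratio is the log2 of CPM + 1 in KO or KI over that in WT. With 1 library per genotype no test was possible, a difference in library or animal cannot be told apart from one in genotype, a ratio compares libraries, and both ratios share the WT library. Tags were counted at the 3′ end, so each gene is compared only with itself.

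The 3 SUN-domain genes had far higher levels in RS-like than in SP-like cells. Sun5 (chr2:153856188-153871084, minus strand; positions are of GRCm38 with GENCODE M21), whose protein anchors the tail to the nucleus, stood in SP-like cells at 5.0 CPM in WT, 4.21 CPM in KO and 1.51 CPM in KI. In RS-like cluster 10 it was at 272 CPM in WT (260.1 to 284), 327 CPM in KO (310.4 to 343) and 316 CPM in KI (299 to 333). The rise on the log2 scale was 5.51 (WT), 5.97 (KO) and 6.98 (KI), and by the rule of 10% of its own highest level it set in at cluster 3 in every library. Spag4 (also called Sun4, chr2:156065175-156070617, plus strand), a partner of SUN3 in the envelope beside the manchette, set in by the same rule at SP-like cluster 7 in WT and at unnamed cluster 2 in KO and KI, and went from 23.6 CPM in WT, 12.00 CPM in KO and 3.44 CPM in KI to 576 CPM in WT (559 to 594), 594 CPM in KO (572 to 617) and 509 CPM in KI (488 to 530.1). Sun3 (chr11:9016054-9048991, minus strand), which lies in the envelope along the manchette, had 34.7 CPM in WT, 36.5 CPM in KO and 31.1 CPM in KI in SP-like cells and 254 CPM in WT (242 to 266), 189.7 CPM in KO (178 to 203) and 164 CPM in KI (152 to 176) in cluster 10. Its rise, 2.84 (WT), 2.35 (KO) and 2.36 (KI) on the log2 scale, was smaller than that of the other SUN genes, and its onset by the same rule was cluster 2 in WT, cluster 7 in KO and cluster 11 in KI. These onsets of Spag4 and Sun3 were at levels below the barcodes taken as empty. Spag4 had 92.6 CPM in WT cluster 7, a shallow cluster, against 305 CPM in those barcodes. In WT SP-like clusters 6 and 11 it had 18.2 and 5.90 CPM. Sun3 had 49.8 CPM in KO cluster 7 and 46.4 CPM in KI cluster 11, against 121 and 120 CPM in those barcodes. The Sun5 onset at cluster 3 was at 131 CPM in WT, 110 CPM in KO and 147 CPM in KI. Those barcodes had 101.3, 123 and 123 CPM of Sun5, so its KO onset was below them too. No difference in timing is read from these onsets. Sun3 overlaps Gm11992 on the opposite strand, which had 106, 107 and 103 UMIs in RS-like cells of WT, KO and KI.

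Hook1 (chr4:95967240-96025413, plus strand), a microtubule-binding adaptor whose loss gives misshapen heads in the azh mouse, had UMIs in every germ cell cluster and rose in spermatids. In cluster 12 it was at 189 CPM in WT, 187 CPM in KO and 178 CPM in KI, in SP-like cells at 135 CPM in WT, 119 CPM in KO and 119 CPM in KI, and in cluster 10 at 345 CPM in WT (332 to 359), 331 CPM in KO (315 to 348) and 319 CPM in KI (303 to 336). In the empty barcodes Hook1 had 286 CPM in WT, 272 CPM in KO and 311 CPM in KI, above cluster 12 and SP-like cells in each library. What part of its levels there is free RNA was not tested. Hook1 was highest in WT cluster 4, at 895 CPM. Rimbp3 (chr16:17208603-17213982, plus strand), whose protein binds HOOK1 on the manchette, took the opposite course. It had 97.7 CPM in WT, 102 CPM in KO and 109 CPM in KI in SP-like cells and 38.7 CPM in WT (34.2 to 43.5), 54.2 CPM in KO (47.8 to 61.3) and 62.5 CPM in KI (55.3 to 70.3) in cluster 10. By ES-like cluster 9 Rimbp3 was down to 16.3 CPM in WT, 32.8 CPM in KO and 31.6 CPM in KI.

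Spem1 (chr11:69820876-69822180, minus strand), needed to clear the cytoplasm from the neck of the late spermatid, rose in ES-like cells and set in, by the rule of 10% of its highest level, at cluster 10 in every library. It had 20.4 CPM in WT, 1.78 CPM in KO and 0.518 CPM in KI in SP-like cells, 136 CPM in WT (127 to 145), 60.6 CPM in KO (53.7 to 68.00) and 42.4 CPM in KI (36.6 to 48.9) in cluster 10 and 407 CPM in WT (391 to 423), 242 CPM in KO (229 to 256) and 243 CPM in KI (227 to 259.9) in ES-like cluster 9. Its peak in WT was 1269.7 CPM in cluster 4, which held 1150 WT cells, 7 KO cells and 1 KI cell. No KO or KI level was therefore set beside it. The empty barcodes had 146 CPM of Spem1 in WT, 59.2 CPM in KO and 80.3 CPM in KI. Cluster 10 was below them in WT and KI, so no timing is read from the Spem1 onset.

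The pair of tail cargo genes was on early. Meig1 (chr2:3409043-3422648, minus strand), which gathers cargo on the manchette, had its highest level in SP-like cluster 7 in every library. Cluster 7, a shallow cluster, had 9122 CPM in WT, 7969 CPM in KO and 8537 CPM in KI. Meig1 stood in SP-like cells at 6357 CPM in WT, 6529 CPM in KO and 6047 CPM in KI and in cluster 10 at 7387 CPM in WT, 7187 CPM in KO and 6908 CPM in KI. In the empty barcodes Meig1 had 8725 CPM in WT, 8452 CPM in KO and 7569 CPM in KI, above SP-like cells and cluster 10 in each library. What part of the Meig1 levels is free RNA was not tested. In the low-UMI RS-like cluster 1 Meig1 was lower, at 3208 CPM in WT, 3767 CPM in KO and 1931 CPM in KI, and in WT it had 5444 CPM in cluster 5 and 1116 CPM in cluster 4. Spag16 (chr1:69826970-70725132, plus strand), which encodes a protein of the central pair of the tail and reaches the manchette through MEIG1, was higher in SP-like than in RS-like cells. SP-like cells had 944 CPM in WT, 1004 CPM in KO and 1097 CPM in KI, and cluster 10 had 102 CPM in WT (94.9 to 109.9), 122 CPM in KO (112 to 132) and 143 CPM in KI (132 to 155). In cluster 1 it was higher than in cluster 10, at 278 CPM in WT, 446 CPM in KO and 398 CPM in KI. Its highest levels, 4189 CPM in WT and 2859 CPM in KO, were in cluster 14 and, in KI, 3072 CPM was in cluster 3. The gene spans 898163 bases and is itself among the 10 leading genes of those clusters, whose leading genes had median lengths of 520 kb (cluster 14) and 359 kb (cluster 3) against 12.7 kb for all genes. Whether length bears on these levels was not tested.

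**Figure D1:**
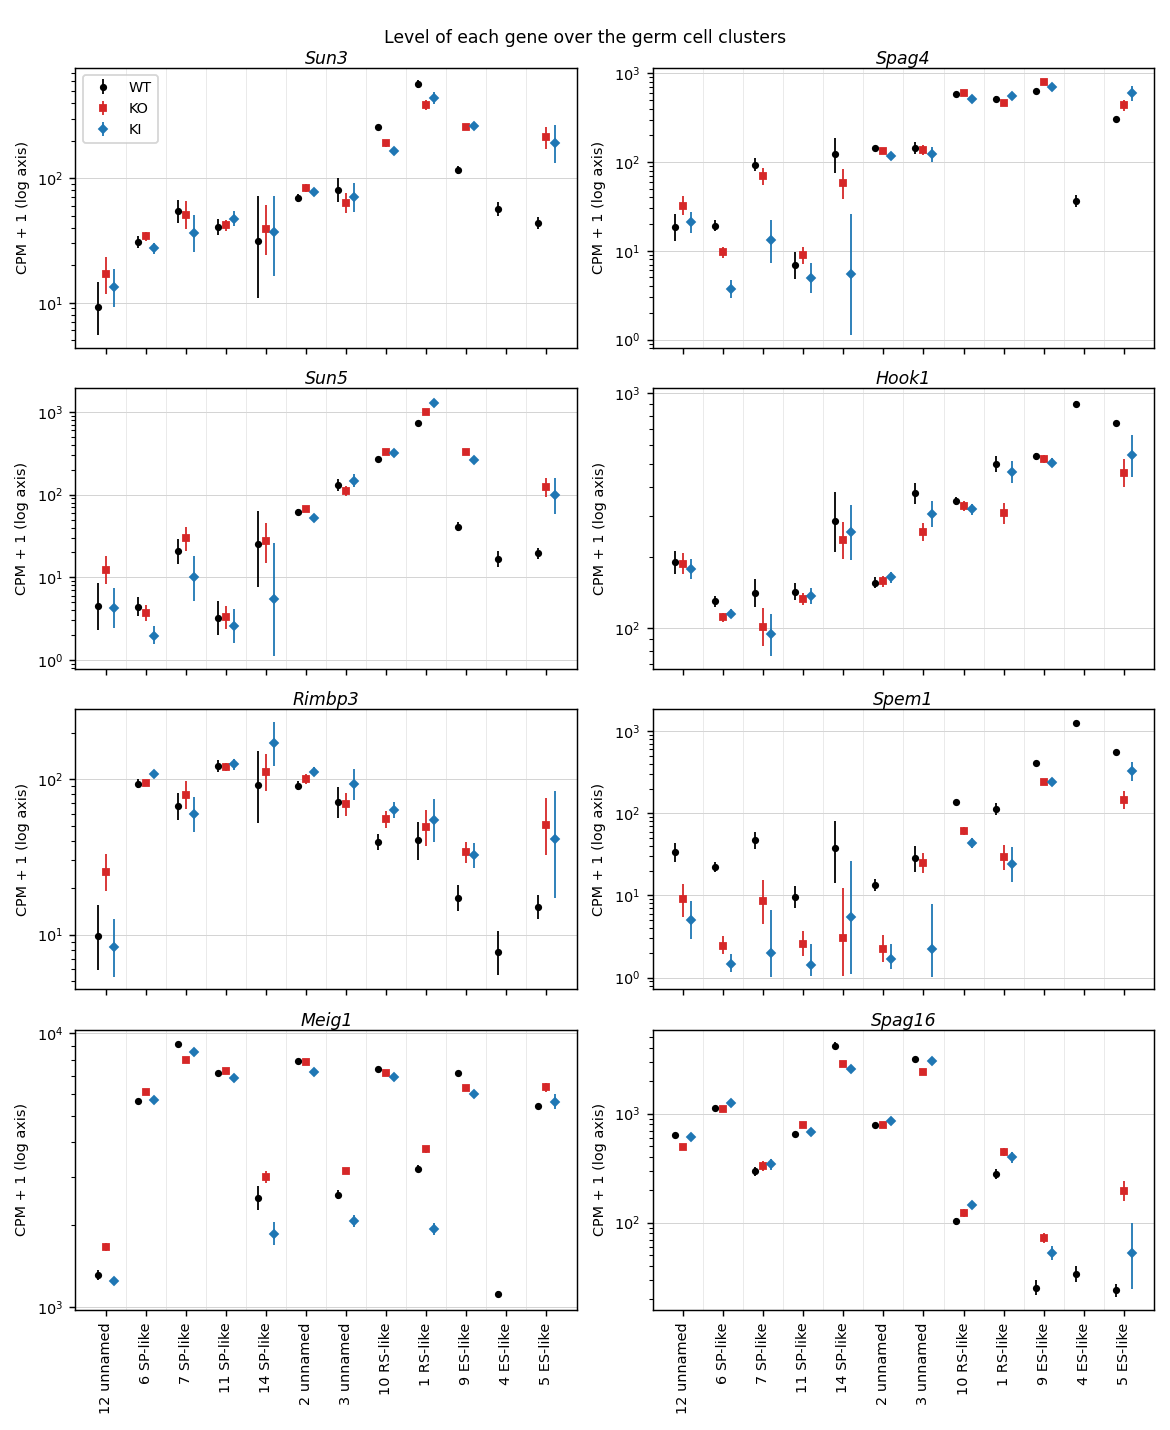
CPM + 1 on a log axis in each germ cell cluster with at least 20 cells, for WT (circles), KO (squares) and KI (diamonds). Bars are 95% Poisson intervals. Clusters run from cluster 12 through SP-like, unnamed and RS-like to ES-like ones. SP-like clusters stand by number, and RS-like and ES-like ones by protamine share. The order within a class is not shown to be one of development. Sun3, Spag4 and Sun5 are highest in RS-like or ES-like clusters, and Hook1 and Spem1 rise to ES-like clusters. Rimbp3 is lower in spermatid than in SP-like clusters in WT and KO. In KI its cluster 10, at 62.5 CPM, stands above SP-like cluster 7, at 58.6 CPM. Spag16 is highest in clusters 14 and 3, and cluster 4 has WT points only.

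Over 34 profiles (clusters of at least 20 cells in each library, which share libraries and depth), Sun5 and Spag4 had the closest courses among the 8 genes, with r = 0.91 on the log2 scale. Sun3 followed Sun5 at r = 0.88, Hook1 followed Spem1 at r = 0.83, and Spem1 and Spag16 were the most opposed at r = -0.76. Among 4187 genes with a mean of at least 50 CPM, those most like Sun5 were Tmem190 (r = 0.984), Spaca3 (r = 0.978), AC157566.4 (r = 0.978), of which Tmem190 and Spaca3 encode acrosomal proteins. Nearest to Spag4 were Trim36 (r = 0.991), Mbd3l1 (r = 0.98), Samd4 (r = 0.98), and to Sun3 1700086P04Rik (r = 0.936), Cldn34c4 (r = 0.926), Cnbd2 (r = 0.919). Hook1 was most like Cep85l (r = 0.962), Rangap1 (r = 0.93), Dcun1d1 (r = 0.925). For Spem1 these were Cabs1 (r = 0.977), Spem2 (r = 0.976), 1700012A03Rik (r = 0.976), where Spem2 is of the same family. Nearest to Spag16 were Gm45861 (r = 0.983), Ccdc148 (r = 0.973), Catsperg2 (r = 0.973), the last an accessory protein of the sperm calcium channel. Rimbp3 had Slc2a5 (r = 0.969), Arsa (r = 0.951), Pom121l2 (r = 0.949), and Meig1 had Pdcl2 (r = 0.944), Csnk2b (r = 0.924), Pdcd5 (r = 0.923). Tmem190 is also among the leading genes of cluster 1.

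In RS-like cells Spag4, Hook1 and Meig1 were within 0.2 of WT on the log2 scale in both mutants, Sun3 and Spem1 were lower, and Sun5, Rimbp3 and Spag16 were higher. The median log2 ratio over the 8 was -0.024 in KO and -0.12 in KI, beside medians of 0.21 and 0.22 over all 8093 genes with a mean of at least 10 CPM. Only Spem1 was 2-fold or more lower, in KO and in KI, and 0 of the 8 were 2-fold higher, in RS-like cells as a whole and in cluster 10 alone. Of all genes 3.45% were 2-fold lower and 8.61% higher in KO, and 5.52% lower and 9.0% higher in KI. In cluster 10 these were 4.31% and 9.02% in KO, and 6.35% and 11.2% in KI. Between the mutants, KI over KO, the median of the 8 was -0.062 with a range of -0.44 (Spem1) to 0.21 (Rimbp3), and 0 of the 8 were 2-fold apart, with 1.26% of all genes lower and 0.358% higher. Scaling by TMM moved every RS-like ratio by -0.28 in KO and -0.27 in KI. With it 7.12% of genes were lower and 4.34% higher in KO, and 9.29% lower and 4.61% higher in KI.

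The RS-like cells of the libraries differed in their mRNA for nuclear compaction. UMIs of Prm1, Prm2, Tnp1 and Tnp2 had a median share of 1.27% (WT), 0.455% (KO) and 0.262% (KI) of their UMIs. All 9 ES markers together had 34903 CPM in WT, 10731 CPM in KO and 7573 CPM in KI, and the 15 SP markers had 1143, 1931 and 1765 CPM. The Sertoli-like cluster 8 also held macrophage markers, with Cd74 and Lyz2 among its 10 leading genes. Clustering without integration, whose ES-like clusters are given below with cluster 9, gave a Sertoli-like cluster of 532 cells and a macrophage-like one of 80. In cluster 8, whose cells should hold no protamine mRNA, the median share per cell was 1.76% (WT), 0.61% (KO) and 0.424% (KI). Of all UMIs summed over the cells these 4 genes made up 2.99% (WT, 2.97 to 3), 0.747% (KO, 0.74 to 0.753) and 0.461% (KI, 0.455 to 0.467) in RS-like cells and 6.04% (WT, 5.99 to 6.1), 0.777% (KO, 0.761 to 0.793) and 0.334% (KI, 0.317 to 0.352) in Sertoli-like cells. In the empty barcodes they made up 4.88% (WT, 4.86 to 4.89), 1.77% (KO, 1.76 to 1.77) and 2.4% (KI, 2.39 to 2.41). The part of free RNA in the RS-like values was not tested. Markers of somatic cells had few UMIs there. Over the libraries the 8 Sertoli markers summed to 9.52 to 22.1 CPM, with Sox9 and Wt1 at 0 in WT and Wt1 at 0 in KI, and the 6 Leydig markers to 2.86 to 8.49 CPM, with Insl3 at 0 in WT and KI. The 8 stromal or myoid markers summed to 2.86 to 10.4 CPM, the 8 macrophage markers to 8.92 to 14.8 CPM, the 4 endothelial markers to 1.55 to 3.06 CPM and the 4 red blood markers to 0 to 0.194 CPM. The 10 spermatogonium markers summed to 39.5 to 64.9 CPM.

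Sun3 was lower in both mutants in RS-like cells, with 301 CPM in WT (289 to 312), 228 CPM in KO (216 to 241) and 203 CPM in KI (191 to 216). The ratio was -0.39 (-0.49 to -0.30) in KO and -0.56 (-0.67 to -0.46) in KI. It was below 0 in each RS-like cluster, at -0.42 and -0.63 in cluster 10 and -0.55 and -0.35 in cluster 1. Where cells were thinned to 2000 UMIs, leaving out shallower cells, the share of cluster 10 cells with a Sun3 UMI was 36.4% of WT cells (31.5 to 41.5), 30.2% of KO cells (24.2 to 36.8) and 24.8% of KI cells (16.7 to 34.3). The Sertoli-like cells, with 80, 115 and 54 cells deep enough and median depths of 1498, 1229 and 1423 UMIs before thinning against 13356, 15414 and 30419 in cluster 10, gave 17.5% of WT cells (9.91 to 27.6), 15.7% of KO cells (9.55 to 23.6) and 9.26% of KI cells (3.08 to 20.3). Unthinned, the shares in cluster 10 of WT, KO and KI were 92.2%, 82.3% and 95.05%. Sun3 was thus above the somatic cells in all 3 libraries, with overlapping intervals in KI.

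Sun5 went the other way. RS-like cells had 341 CPM in WT (329 to 354), 463 CPM in KO (445 to 480.4) and 451 CPM in KI (433 to 469.6), and the ratio was 0.44 (0.36 to 0.51) in KO and 0.40 (0.32 to 0.48) in KI. In cluster 10 alone it was 0.26 and 0.21, near the medians of all genes there, 0.22 and 0.24. Thinned shares in cluster 10 were 44.2% of WT cells (39.1 to 49.4), 51.2% of KO cells (44.3 to 58.02) and 40.6% of KI cells (30.9 to 50.8), against 3.75% of WT cells (0.78 to 10.6), 16.5% of KO cells (10.3 to 24.6) and 9.26% of KI cells (3.08 to 20.3) in Sertoli-like cells. The low-UMI cluster 1 had the most Sun5, at 734 CPM in WT, 1014 CPM in KO and 1276 CPM in KI. Leaving that cluster out leaves cluster 10 alone, so the KO ratio is then the 0.26 already given, against 0.44.

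Spag4 and Hook1 stayed close to WT. Spag4 had 566 CPM in WT (549.8 to 582), 568 CPM in KO (549 to 588) and 514 CPM in KI (495 to 534), a ratio of 0.006 (-0.058 to 0.070) in KO, -0.27 with TMM, and -0.14 (-0.21 to -0.069) in KI. Hook1 had 368 CPM in WT (355 to 381), 326 CPM in KO (312 to 341) and 339 CPM in KI (324 to 355), with ratios of -0.17 and -0.12. Thinned shares for Spag4 in cluster 10, 63.6% of WT cells (58.5 to 68.5), 70.7% of KO cells (64.1 to 76.7) and 63.4% of KI cells (53.2 to 72.7), were far above the 22.5% of WT cells (13.9 to 33.2), 22.6% of KO cells (15.3 to 31.3) and 11.1% of KI cells (4.19 to 22.6) of Sertoli-like cells. For Hook1 they were 51.5% of WT cells (46.3 to 56.7), 46.05% of KO cells (39.2 to 52.96) and 37.6% of KI cells (28.2 to 47.8) against 40% of WT cells (29.2 to 51.6), 20.9% of KO cells (13.9 to 29.4) and 12.96% of KI cells (5.37 to 24.9), and the WT intervals overlapped. In cluster 1 the Hook1 ratio was -0.69 in KO and -0.10 in KI.

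Rimbp3 and Spag16 were somewhat higher in both mutants in RS-like cells as a whole. Rimbp3 had 38.8 CPM in WT (34.7 to 43.3), 52.97 CPM in KO (47.3 to 59.2) and 61.3 CPM in KI (54.7 to 68.4), ratios of 0.44 and 0.65. Spag16 had 129 CPM in WT (121 to 137), 186 CPM in KO (175 to 197) and 179 CPM in KI (168 to 191), ratios of 0.53 and 0.47. In cluster 10 alone Spag16 had 102 CPM in WT, 122 CPM in KO and 143 CPM in KI. The low-UMI cluster 1 had 278 CPM in WT, 446 CPM in KO and 398 CPM in KI. The gap between KO and WT was thus narrower in cluster 10 than in cluster 1. From 2 to 6% protamine UMIs Spag16 was lower in KI, with 109 CPM in WT, 158 CPM in KO and 90.4 CPM in KI, ratios of 0.53 (0.23 to 0.84) and -0.27 (-0.69 to 0.13). Thinned shares of cluster 10 cells with a UMI were 7.82% of WT cells (5.3 to 11.03), 11.2% of KO cells (7.28 to 16.2) and 19.8% of KI cells (12.5 to 28.9) for Rimbp3, and 19.1% of WT cells (15.3 to 23.5), 17.7% of KO cells (12.8 to 23.4) and 26.7% of KI cells (18.4 to 36.5) for Spag16. Sertoli-like cells gave 10% of WT cells (4.42 to 18.8), 15.7% of KO cells (9.55 to 23.6) and 5.56% of KI cells (1.16 to 15.4) for Rimbp3. For Spag16 they gave 25% of WT cells (15.99 to 35.9), 28.7% of KO cells (20.6 to 37.9) and 18.5% of KI cells (9.25 to 31.4). In WT and KO the shares of both genes were below those of the shallow somatic cells, and in KI they were above with overlapping intervals. In WT cells of cluster 9, deeper than the Sertoli-like cells, the thinned shares were lower than in cluster 10, at 1.78% of WT cells (0.719 to 3.64) for Rimbp3 and 4.83% of WT cells (2.94 to 7.45) for Spag16, so the Sertoli-like share is not a floor common to all cells. Meig1 had 6759.5 CPM in WT, 6509 CPM in KO and 6208 CPM in KI in RS-like cells, ratios of -0.054 and -0.12. Its UMIs were in 98.8% of thinned Sertoli-like cells of WT too, at 6487 CPM in WT, 6524 CPM in KO and 4476 CPM in KI, so no share of cells is read for this gene.

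Spem1 was the gene that passed 2-fold. Its RS-like level was 132 CPM in WT (125 to 140.5), 54.2 CPM in KO (48.4 to 60.4) and 39.7 CPM in KI (34.5 to 45.6) from 1113 UMIs in WT, 319 UMIs in KO and 205 UMIs in KI. The ratio was -1.27 (-1.47 to -1.11) in KO and -1.71 (-1.96 to -1.52) in KI, at the 1.71 and 1.57 percentiles of all genes. In cluster 10 the thinned share of cells with a Spem1 UMI was 16.7% of WT cells (13.1 to 20.9), 7.44% of KO cells (4.31 to 11.8) and 4.95% of KI cells (1.63 to 11.2), and in Sertoli-like cells 27.5% of WT cells (18.1 to 38.6), 5.22% of KO cells (1.94 to 11.01) and 0% of KI cells. The last is 0 of 54 cells, which allows a share of up to 5.56%, so the KI share was not above it, and the KO intervals overlapped. The WT share in RS-like cells was below that in these shallow somatic cells. It was well above that of cluster 2, whose depth was closer (medians of 11436, 12268 and 26834 UMIs). There Spem1 had 12.5 CPM in WT, 1.21 CPM in KO and 0.704 CPM in KI and the thinned share was 2.26% of WT cells (1.27 to 3.7), 0% of KO cells and 0% of KI cells. The last values are 0 of 519 and 0 of 258 cells, which allow shares of up to 0.578% and 1.16%. Background by the Sertoli-like cells and by cluster 2 thus differed, and what part of the ratio is free RNA was not tested.

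Per 1000 UMIs of Prm1, Prm2, Tnp1 and Tnp2, Spem1 in cluster 10 had 4.46 UMIs in WT (4.18 to 4.75), 7.55 in KO (6.7 to 8.48) and 9.18 in KI (7.91 to 10.6), above the empty barcodes of each library, at 3.0 (WT), 3.35 (KO) and 3.35 (KI). In CPM, Spem1 in cluster 10 was not above the empty barcodes by more than counting error. Cluster 10 had 136 CPM in WT, 60.6 CPM in KO and 42.4 CPM in KI. The empty barcodes had 146 CPM in WT (138 to 155), 59.2 CPM in KO (54.3 to 64.5) and 80.3 CPM in KI (74.1 to 86.9), ratios of -1.29 and -0.86. Per 1000 of the protamine and transition protein UMIs, SP-like cells had 4.93 (WT), 4.88 (KO) and 3.54 (KI), Sertoli-like cells 3.47 (WT), 5.75 (KO) and 5.11 (KI), and cluster 12 7.11 (WT), 9.64 (KO) and 7.69 (KI). In cluster 2 it was 3.74 (WT), 1.95 (KO) and 2.59 (KI). Many of these rest on few UMIs, with intervals in KI of 1.77 to 6.33 in SP-like cells, 2.06 to 10.5 in Sertoli-like cells, 3.69 to 14.1 in cluster 12 and 0.951 to 5.64 in cluster 2. The protamine share itself differed in cluster 10, with medians of 0.682% (WT), 0.246% (KO) and 0.13% (KI). In spermatids binned by that share, as described later, the libraries had 11.7 (WT), 10.01 (KO) and 10.8 (KI) under 2%, 4.38 (WT), 4.25 (KO) and 4.15 (KI) from 2 to 6% and 3.28 (WT), 3.0 (KO) and 2.94 (KI) from 6 to 10%.

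Without integration, the ES-like clusters held 1248, 1 and 1 cells of WT, KO and KI, then 1122, 14 and 9, then 2, 340 and 120. ES-like cells of WT and of the mutants were thus largely apart there, and clusters 9 and 5 hold them together after integration. In ES-like cluster 9 most genes were higher in the mutants, with medians over all genes of 0.69 in KO and 0.71 in KI. Sun5 had 39.9 CPM in WT (35.04 to 45.2), 327 CPM in KO (311 to 343) and 265 CPM in KI (248 to 283). From cluster 10 to cluster 9 it fell by 2.74 on the log2 scale in WT, stayed at 327 CPM in KO and fell by 0.25 in KI. The ratio to WT was 3.0 (2.84 to 3.23) in KO and 2.70 (2.53 to 2.94) in KI, at the 98.2 and 96.7 percentiles of all genes. Sun3 had 115 CPM in WT (106 to 123), 256 CPM in KO (242 to 270.1) and 262 CPM in KI (245 to 279.9), ratios of 1.15 and 1.19 at the 67.97 and 68.9 percentiles. Spag16 had 24.3 CPM in WT, 71.99 CPM in KO and 51.9 CPM in KI, ratios of 1.53 and 1.06 at the 80.4 and 64.2 percentiles, and Rimbp3 had ratios of 0.97 and 0.92, just inside 2-fold. These 3 genes, Sun5, Sun3 and Spag16, were 2-fold higher in each mutant, a share like the 37.6% of all genes in KO and 38.2% in KI. No member was 2-fold lower, with 3.69% and 3.12% of all genes.

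Thinned shares in cluster 9 were 7.38% of WT cells (5.0 to 10.4), 38.8% of KO cells (32.7 to 45.1) and 38% of KI cells (28.5 to 48.3) for Sun5, and 17.6% of WT cells (13.9 to 21.7), 44% of KO cells (37.8 to 50.4) and 40% of KI cells (30.3 to 50.3) for Sun3. Both mutants were above their Sertoli-like shares given earlier for these genes, whereas the WT share of Sun3 was close to its 17.5% of Sertoli-like cells. Spag16, at 4.83% of WT cells (2.94 to 7.45), 14% of KO cells (9.95 to 18.9) and 18% of KI cells (11.03 to 26.9), was below its Sertoli-like shares in every library. Spem1 in cluster 9 had ratios of -0.75 (-0.85 to -0.65) in KO and -0.74 (-0.86 to -0.63) in KI, with thinned shares of 56.5% of WT cells (51.4 to 61.5), 39.6% of KO cells (33.5 to 45.96) and 46% of KI cells (35.98 to 56.3), above the somatic cells. Spag4 had 634 CPM in WT, 805 CPM in KO and 700.1 CPM in KI, ratios of 0.34 and 0.14 which became -0.47 and -0.71 with TMM. Hook1 kept 538 CPM in WT, 523 CPM in KO and 505 CPM in KI, and Meig1 7155 CPM in WT, 6326 CPM in KO and 5982 CPM in KI.

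Cluster 9 held cells far apart in compaction mRNA. Their protamine and transition protein UMIs had median shares of 24.3% (WT), 7.83% (KO) and 7.71% (KI). TMM, which moved the ratios there by -0.81 in KO and -0.86 in KI, left 14.5% of genes higher and 15.5% lower in KO, and 14.5% higher and 15.2% lower in KI. Sun5 alone of the 8 genes remained 2-fold higher in both mutants under it, at 2.20 and 1.86, while Spem1 became 2-fold lower in both, at -1.55 and -1.60, and Meig1 in KI, at -1.11. In ES-like cluster 5 the gap was wider, 34.5% (WT), 5.13% (KO) and 5.48% (KI), with 70.9% of all genes 2-fold higher in KO and 64.3% in KI, and 5.06% lower in KO and 3.88% in KI. The same 4 members, Sun3, Sun5, Rimbp3 and Spag16, were 2-fold higher in each mutant, and Spem1 was 2-fold lower in KO. With TMM, which moved the ratios there by -2.20 in KO and -2.11 in KI, 0 of the 8 genes were 2-fold higher and 4 were 2-fold lower in each mutant, beside 29.6% of all genes higher and 30.8% lower in KO, and 22.4% and 35.8% in KI, so no direction is read from cluster 5. Sun5 there had 18.5 CPM in WT, 122 CPM in KO and 98.01 CPM in KI, and Sun3 42.5 CPM in WT, 211 CPM in KO and 190.3 CPM in KI. Spag4 had 302 CPM in WT, 438 CPM in KO and 594 CPM in KI, Hook1 742 CPM in WT, 457 CPM in KO and 542 CPM in KI, and Spem1 559 CPM in WT, 146 CPM in KO and 329 CPM in KI.

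**Figure D2:**
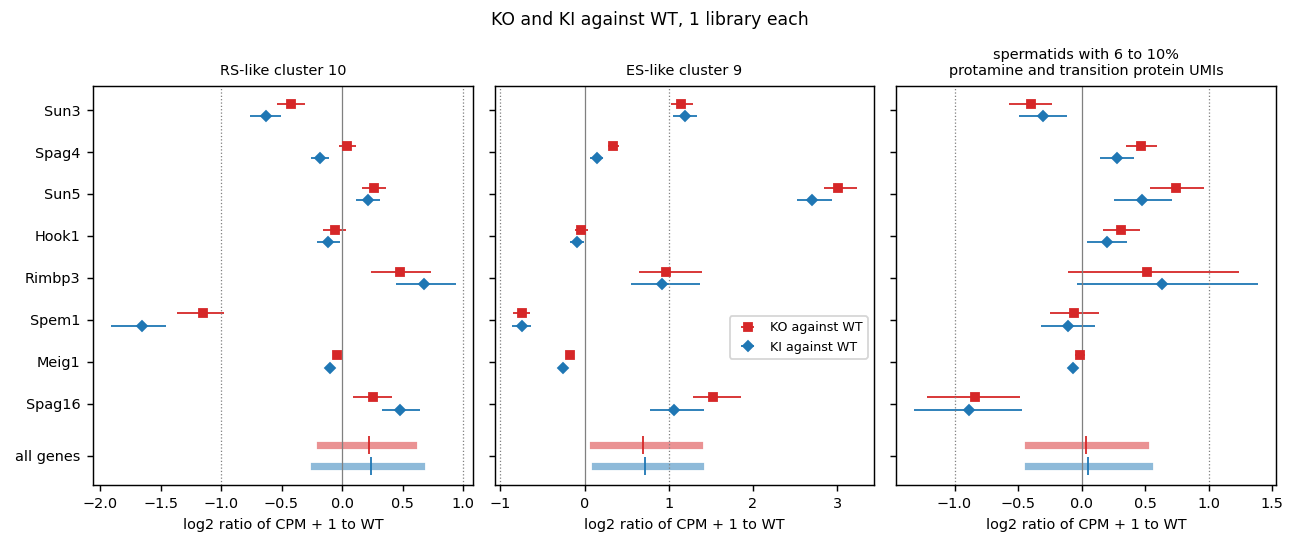
Log2 ratios of CPM + 1 in KO (squares) and KI (diamonds) over WT for the 8 genes, with 95% counting intervals, in RS-like cluster 10, ES-like cluster 9 and spermatids with 6 to 10% protamine and transition protein UMIs; the bottom bars give the middle 50% of all genes and ticks their median. Sun5 stands at 3.0 and 2.70 in cluster 9 but at 0.75 and 0.48 in the bin, and Spem1 at -1.15 and -1.66 in cluster 10 but at -0.058 and -0.11 in the bin.

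RS-like and ES-like cells were pooled and binned by the share of their UMIs from the 4 protamine and transition protein genes. The genotype may itself alter these mRNAs, so an equal share is not shown to be an equal point of development. The ratios in the bins hold for cells of the same bin only, within which the median share can differ between libraries. From 20% up there were 1975 WT cells, 0 KO cells and 3 KI cells, so the late end was measured in WT alone. Under 2% there were 777, 878 and 352 cells, with median shares of 0.939% (WT), 0.453% (KO) and 0.271% (KI). From 2 to 6% there were 186, 180 and 64, with median shares of 3.11% (WT), 4.42% (KO) and 4.56% (KI). From 6 to 20% there were 461, 267 and 95. In the last of these the median share was 14.5% (WT), 8.03% (KO) and 8.33% (KI), and a narrower bin of 6 to 10% was added after the data were seen. It held 122, 236 and 77 cells, with median shares of 7.7% (WT), 7.84% (KO) and 7.8% (KI). Median UMIs per cell in it were 1597, 9705.5 and 7694. The WT cells there were shallow. From 2 to 6% median UMIs per cell were 1597.5 (WT), 2243 (KO) and 3529 (KI). The protamine share of the WT empty barcodes, 4.88%, is within the range of that bin. The part that free protamine RNA has in placing cells in any of the bins was not tested.

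Sun5 declined from bin to bin in WT, with 394 CPM under 2%, 327 CPM from 2 to 6%, 107 CPM from 6 to 20% and 20.6 CPM from 20% up. KO had 481, 298 and 320.3 CPM in the bins it filled, and KI 451, 324 and 254 CPM. From 2 to 6% the libraries differed by less than counting error, with ratios of -0.14 (-0.33 to 0.058) in KO and -0.015 (-0.24 to 0.21) in KI, and there 0 of the 8 genes were 2-fold lower or higher, beside 6.37% and 12.7% of all genes in KO and 6.92% and 13.2% in KI. From 6 to 20% they were 1.57 (1.42 to 1.74) and 1.24 (1.07 to 1.42), and Sun5 was the only member 2-fold higher, where 13.4% and 14.0% of all genes were. None was 2-fold lower, with 5.44% and 5.92% of all genes. In the 6 to 10% bin Sun5 had 195 CPM in WT (170.5 to 223), 329 CPM in KO (310.4 to 348) and 273 CPM in KI (250.2 to 297), where the ratios of 0.75 (0.54 to 0.96) and 0.48 (0.25 to 0.71) were short of 2-fold. There 11.8% of all genes were 2-fold higher and 9.76% lower in KO, and 13.1% higher and 9.22% lower in KI, and none of the 8 genes was either.

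For Sun3 the mutant levels in the bins under 6% were below those of WT, as in cluster 10, although median protamine shares differed there. It had 264 CPM in WT, 215 CPM in KO and 198 CPM in KI under 2% and 384 CPM in WT (349.7 to 420.1), 282 CPM in KO (257 to 308) and 269 CPM in KI (237 to 305) from 2 to 6%, ratios of -0.44 (-0.63 to -0.26) and -0.51 (-0.74 to -0.29). From 6 to 20% Sun3 had 257 CPM in WT (242 to 273), 252 CPM in KO (237 to 267) and 265 CPM in KI (247 to 285), with overlapping intervals. In the 6 to 10% bin it had 343 CPM in WT, 259 CPM in KO and 278 CPM in KI, ratios of -0.40 and -0.30, the reverse of the sign in cluster 9. WT Sun3 peaked from 2 to 6% and dropped to 53.1 CPM from 20% up. Spag16 also turned about, from ratios of 1.53 and 1.06 in cluster 9 to -0.84 (-1.22 to -0.48) and -0.88 (-1.32 to -0.47) in the 6 to 10% bin, from 98, 176 and 92 UMIs.

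Spem1 rose from bin to bin in each library. Under 2% it had 73.6 CPM in WT (66.6 to 81.2), 39.7 CPM in KO (34.5 to 45.5) and 32.9 CPM in KI (27.99 to 38.3), ratios of -0.87 (-1.14 to -0.65) in KO and -1.14 (-1.44 to -0.90) in KI. It was there 2-fold lower in KI and the only member past 2-fold in either mutant, where 3.1% of all genes were lower and 7.43% higher in KO, and 3.73% lower and 6.44% higher in KI. From 2 to 6% it had 183 CPM in WT (160.0 to 209), 169 CPM in KO (149.7 to 189.6) and 159 CPM in KI (134 to 187), ratios of -0.12 (-0.38 to 0.14) and -0.20 (-0.51 to 0.10). From 6 to 20% Spem1 was at 430.5 CPM in WT (410.5 to 451), 249 CPM in KO (234 to 264) and 268 CPM in KI (249 to 287), ratios of -0.79 (-0.90 to -0.68) and -0.68 (-0.81 to -0.56), where WT had the higher median protamine share. In the 6 to 10% bin it had 261 CPM in WT, 250.5 CPM in KO and 242 CPM in KI, ratios of -0.058 (-0.25 to 0.14) and -0.11 (-0.32 to 0.11). The mutants were thus below WT by more than counting error under 2% and from 6 to 20%, and not from 2 to 6% or from 6 to 10%. Under 2%, as from 6 to 20%, WT had the higher median protamine share. From 2 to 6% it had the lower, at 3.11% (WT), 4.42% (KO) and 4.56% (KI). The ratios in these bins do not compare cells of like share. Above 20% WT went on to 702 CPM. Per whole library, counting every barcode, Spem1 had 213 CPM in WT, 41.95 CPM in KO and 42.8 CPM in KI, ratios of -2.32 and -2.29, where fewer late spermatids and less Spem1 RNA per cell cannot be told apart.

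Hook1 had 322 CPM in WT, 306 CPM in KO and 328 CPM in KI under 2%, 427 CPM in WT (391 to 466), 474 CPM in KO (442 to 508) and 523 CPM in KI (477 to 572) from 2 to 6% and 519 CPM in WT, 529 CPM in KO and 504 CPM in KI from 6 to 20%. WT and KO climbed from bin to bin, KI was level after the 2 to 6% bin, where its ratio to WT was 0.29 (0.11 to 0.47), and WT reached 734 CPM above that. Its ratios from 6 to 20% were 0.027 (-0.058 to 0.11) and -0.043 (-0.14 to 0.054). Spag4 rose in the mutants from 539 CPM under 2% to 803 CPM from 6 to 20% in KO, and from 506 to 712 CPM in KI. WT Spag4 had 531, 636 and 535 CPM in these bins and 332 CPM from 20% up. In the 6 to 10% bin the Spag4 ratios were 0.47 (0.35 to 0.60) and 0.28 (0.14 to 0.41). Rimbp3 declined in all 3 libraries, from 45.3 CPM in WT, 53.97 CPM in KO and 62.3 CPM in KI to 20.8 CPM in WT, 30.01 CPM in KO and 30.2 CPM in KI, and Meig1 stayed between 5749 and 6902 CPM over the libraries in the bins under 20%.

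**Figure D3:**
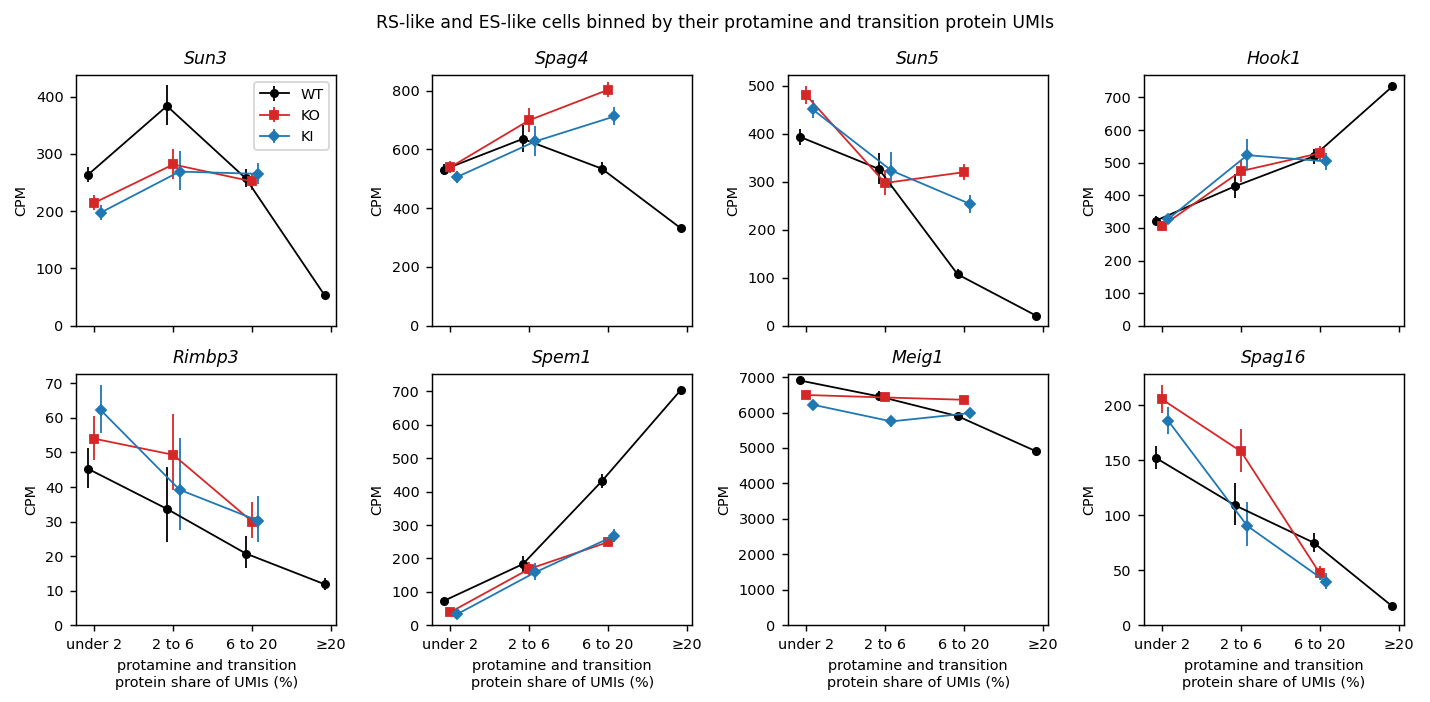
CPM of each gene in RS-like and ES-like cells binned by the share (%) of their UMIs from Prm1, Prm2, Tnp1 and Tnp2, for WT (circles), KO (squares) and KI (diamonds), with 95% Poisson intervals; bins under 20 cells are not drawn. In WT, Sun5 falls from 394 to 20.6 CPM while Spem1 rises from 73.6 to 702 CPM; KO and KI end at the 6 to 20% bin.

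Related genes were read from 3 lists. Of 27 genes of the manchette and of transport along it, 23 had a mean of at least 10 CPM in RS-like cells, and their median ratio was 0.51 in KO and 0.56 in KI, beside the 0.21 and 0.22 of all genes. In KO 2 were 2-fold higher and 0 lower, and in KI 4 were higher and 1 lower, where 8.61% of all genes were higher and 3.45% lower in KO, and 9.0% and 5.52% in KI. The 2 of 23 in KO are near that background. Lrguk, needed for manchette and tail assembly, had 10.5 CPM in WT, 22.1 CPM in KO and 25.8 CPM in KI. Iqcg, a calmodulin-binding protein of the tail, had 42.02 CPM in WT, 90.3 CPM in KO and 85.7 CPM in KI. Ift88 and Spef2, both of tail assembly, passed 2-fold in KI only, and the difference between KO and KI was not tested. Ift20, a carrier of Golgi cargo to the tail, was the lower gene, with 53.9 CPM in WT, 29.03 CPM in KO and 21.9 CPM in KI. These last 3 genes, and Syne2 in the next list, passed 2-fold in 1 mutant and are named after their values were seen.

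Of 14 genes of the nuclear envelope and lamina 9 had at least 10 CPM, with medians of 0.49 in KO and 0.53 in KI. Syne1, the nesprin that pairs with SUN3, had 8.57 CPM in WT, 27.7 CPM in KO and 31.2 CPM in KI, and Syne2 had 6.43 CPM in WT, 24.3 CPM in KO and 11.4 CPM in KI. Both were under 10 CPM in WT and were counted only through the libraries where they were higher. Syne1 was 2-fold higher in both mutants and Syne2 in KO, and no gene of the list was 2-fold lower, beside the same 8.61% higher and 3.45% lower of all genes in KO and 9.0% and 5.52% in KI. All 7 genes of head-tail coupling had at least 10 CPM, none was 2-fold higher or lower, and their medians were 0.07 and 0.14. In ES-like cluster 9, 12 of the 22 manchette genes with at least 10 CPM were 2-fold higher in each mutant and 0 lower, where the gap in protamine share and the 37.6% and 38.2% of all genes given earlier apply as well.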

How the data were processed

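Single-cell 3′ libraries of testis, 1 per genotype with 7000 cells loaded, were analysed. The authors deposited raw UMI counts per gene for all 6794880 barcodes of the list, aligned to mm10. The file headers name Cell Ranger 4, the submitters' processing notes Cell Ranger 2.1.1. The members and lists were chosen with earlier results of these data known.

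Cells were called by UMI totals (3000 expected) and by comparison with barcodes ranked 45000 to 90000, which serve as the empty barcodes (at least 500 UMIs, FDR 0.01, 10000 simulations, at most 20000 candidates). Cells with over 500 genes and under 10% mitochondrial UMIs were kept. Libraries were normalised with sctransform 0.4.2 and integrated with Seurat 5.3.0 (2000 features, without the members and listed genes), and clustered with scanpy 1.11.5 and leidenalg 0.10.2 (100 components, 15 neighbours, resolution 0.3). A class was named where at least 3 of its markers were up, its score led by 0.1 and markers of no other class led among the top 10 genes. Doublets were kept. Scrublet marked 170 WT, 4 KO and 11 KI cells, and with 0.0984% marked in KO it removed few doublets there; leaving the marked cells out was an alternative. Median genes per cell were 1567, 2220 and 3971 (WT, KO, KI).

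UMIs were summed per library and class, and ratios used log2(CPM + 1). The background of all genes took those averaging 10 CPM or more. TMM was from edgeR 4.0.16. Named genes were the 8 members, listed genes past 2-fold in 1 direction in both mutants and the 3 genes most like each member. In counts simulated for each of the KO and KI comparisons (7574 genes, 200 changed), all 200 had the right direction and 192 (KO) and 188 (KI) lay within their interval. No test across samples was made. Python 3.11.15 and R 4.3.3 were used.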

Additional observations from a re-analysis of the deposited data

Results flagged for a closer look

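All 8 genes had UMIs in the empty barcodes, which the comparisons between cells do not use and where a count of 0 would allow up to 3 UMIs. In the order WT, KO and KI, Sun3 had 1028, 1080 and 920 UMIs there, Spag4 2514, 2623 and 2477, and Sun5 835, 1096 and 942. Hook1 had 2361, 2427 and 2380 UMIs and Rimbp3 482, 753 and 563. Spem1 was the gene with fewest UMIs in both mutants relative to WT, at 1205, 529 and 615. Meig1 had 71919, 75521 and 57955 UMIs and Spag16 1575, 2105 and 2032. On the CPM scale Spem1 in the empty barcodes stood at 146 CPM in WT, 59.2 CPM in KO and 80.3 CPM in KI, and Sun5 at 101.3 CPM in WT, 123 CPM in KO and 123 CPM in KI. Spem1 was thus higher in the empty barcodes of WT, and Sun5 in those of the mutants.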

How the results depend on the processing

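In RS-like cells the median ratio of the 8 genes moved from -0.024 to -0.30 in KO and from -0.12 to -0.39 in KI with TMM, and in KO to 0.022 with cells called by UMI totals alone and to 0.065 among cells with 2 to 6% protamine UMIs. In that bin the count of genes at least 2-fold lower was 0 in KO and 0 in KI, against 1 in each before, because Spem1 no longer passed, at -0.12 and -0.20. Over 9 alternatives in RS-like cells the Sun3 ratio was -0.67 to -0.34 in KO and -0.83 to -0.46 in KI, and that of Spem1 -1.55 to -0.12 and -1.97 to -0.20, without a change of sign, whereas Sun5 spanned -0.14 to 0.44 and -0.015 to 0.47, below 0 in the 2 to 6% bin alone, as was Spag16 in KI (-0.27 to 0.57). Hook1 also changed sign, spanning -0.45 to 0.15 in KO and -0.38 to 0.29 in KI, with 8 of 9 alternatives of the main sign in each. Spag4 in KO spanned -0.27 to 0.14, with 6 of 9 of the main sign. Removing Scrublet doublets or the shared barcodes moved none of the 36 results compared by more than counting error. In cluster 9 some ratios changed sign in the protamine bins. For Sun3 they became -0.030 (6 to 20%) and -0.40 (6 to 10%) in KO, and -0.30 (6 to 10%) in KI. For Spag16 they became -0.66 and -0.84 in KO, and -0.91 and -0.88 in KI. The cause was not tested. Leaving out shared barcodes or the low-UMI cluster 1 and all alternatives in clusters 9 and 5 were chosen after seeing the data. No paired analysis was possible because each genotype had 1 library. With 67 to 255 mutant cells in clusters 9 and 5, and 3 above 20% protamine UMIs, late spermatids of the mutants were too few to compare gene by gene at low levels.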
